A study of Mus musculus with 8 samples.

Results

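The genes of the BMP, Nodal and TGF-beta pathway encode secreted growth factors, their receptors and the SMAD proteins that carry the signal to the nucleus. They were chosen by name: every symbol made of Bmp, Gdf, Smad, Lefty or Tgfb and a number, every symbol that begins with Bmpr, Inhb, Acvr or Tgfbr, and Nodal. This rule found 48 genes among the 19938 genes that have a probe set of their own on the array, and each of the 48 was read by 1 probe set. The names Gdf1, Gdf15 and Tgfbr3l also fit the rule and were not analysed here, since no probe set names them alone.

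Expression was profiled on Affymetrix Mouse Gene ST arrays in E14 cells, a feeder-independent mouse embryonic stem cell (ESC) line grown with the cytokine LIF. The shKdm2b group (4 arrays, passages 27 to 30) stably carried a lentiviral shRNA against Kdm2b, the gene of a protein that binds non-methylated CpG dinucleotides and belongs to a variant polycomb repressive complex 1. The shScr group (4 arrays, passages 28 to 31) stably carried a scrambled shRNA in the same vector. Each group rests on 1 shRNA sequence, each shKdm2b array was 1 passage below the shScr array of the same number, and no label names separately derived lines, so p-values measure the spread between these cultures. The hairpins are shown because they are what sets the groups apart:
shKdm2b: cgctgtggaaatatctgtcat
shScr: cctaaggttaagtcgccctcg

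In this pathway a ligand dimer brings type I and type II receptor kinases together, and the activated type I receptor phosphorylates a receptor-regulated SMAD, which enters the nucleus with the common partner SMAD4. BMP and many GDF ligands act mainly through SMAD1, SMAD5 and SMAD9, whereas Nodal, activins and TGF-beta act mainly through SMAD2 and SMAD3, and the inhibitory SMAD6 and SMAD7 and the secreted LEFTY proteins restrain the signal. In mouse ESCs the BMP branch is known for supporting self-renewal together with LIF, and the Nodal and activin branch is active in the same cells through ligands that they make themselves.

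Kdm2b itself was lower in every shKdm2b array, with log2 signals of 8.68 to 9.45, against 10.74 to 11.34 in the shScr arrays (log2 fold change -2.05, adjusted p = 0.000891, limma). The 7 measured ESC markers of a list of 8 averaged 13.28 to 13.33 in the shKdm2b arrays and 12.97 to 13.30 in the shScr arrays, where the array medians were 8.47 to 8.53. Averages of the primitive endoderm, trophoblast, fibroblast, and mesendoderm and mesoderm markers were 8.34 to 9.02 in shKdm2b arrays and 8.30 to 9.30 in shScr arrays. All 7 measured ESC markers had positive log2 fold changes (0.03 to 0.28), and none passed the adjusted p with all arrays. Without shScr replicate 1, Nanog (0.35, adjusted p = 0.0260, limma) and Dppa5a (0.31, adjusted p = 0.0457) passed. By the adjusted p, 1 of 7 fibroblast and 1 of 7 primitive endoderm markers differed, and both of these lists held positive and negative values. Thy1 of the fibroblast list was higher in the shKdm2b arrays by 0.72 on the log2 scale (adjusted p = 0.000475, limma). Pdgfrb had 0.47 with all arrays and 0.64 without shScr replicate 1 (adjusted p = 0.177 and 0.0465, limma). Postn (-0.23), Col1a1 (-0.18) and Twist2 (-0.14) had negative values, which were 0.07, 0.04 and -0.03 without that array. Col3a1 had 0.11 and Col1a2 had -0.01. Sox7 of the primitive endoderm list was higher by 0.40 (adjusted p = 0.0279, and 0.0544 without shScr replicate 1, limma). Gata4 (0.40), Gata6 (0.32), Pdgfra (0.22) and Sox17 (0.11) had positive values without passing. Dab2 had -0.95 (adjusted p = 0.0525, limma) and Foxa2 had -0.04. With the arrays paired by replicate number, the adjusted p was 0.0490 for Sox7, 0.0272 for Gata4, 0.0243 for Gata6, 0.0444 for Pdgfra and 0.0382 for Dab2 (limma).

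Replicate 1 of the shScr group stood apart from the other shScr arrays for some of these genes. In it, 8 of the 48 members were more than 0.5 above the mean of the other shScr arrays on the log2 scale, and none was more than 0.5 below. The same count was not made over all genes. Of the 8 arrays, shKdm2b replicate 1 was the highest for 18 members and shScr replicate 1 for 11. The marker average of the trophoblast list was at most 8.98 in the shKdm2b arrays, 9.30 in shScr replicate 1 and at most 8.92 in the other shScr arrays. That of the fibroblast list was at most 8.99 in the shKdm2b arrays, 9.10 in this array and at most 8.70 in the other shScr arrays. The part of these markers in the results below was not tested. For several of the named pathway genes that moved with shScr replicate 1, values are given with and without it.

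Across the 48 members, 3 genes rose in shKdm2b cells and none fell by the rule of the study's methods, which asks for an adjusted p under 0.05 in most of a gene's probe sets and a change of at least 1.5-fold. Lefty2, a secreted antagonist of Nodal, Acvr1b, the type I receptor for activin and Nodal, and Bmp7, a BMP ligand, were higher by 1.79-fold (95% confidence interval 1.42 to 2.26), 1.54-fold (1.25 to 1.89) and 2.21-fold (1.45 to 3.36). Smad7, an inhibitory SMAD, also passed the adjusted p, with a rise of 1.35-fold (1.15 to 1.57). Over all genes, the rule called 1.42% higher and 1.43% lower, and the adjusted p alone, which 4 members passed higher and 0 lower, called 5.93% higher and 4.8% lower. Without the adjustment, 11 members had a p under 0.05 in the higher direction and 4 in the lower. Of all 19938 genes, 3352 had such a p in the higher direction and 2711 in the lower. In these bulk samples, fewer cells of a type and less RNA per cell cannot be told apart.

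The median log2 fold change of the members was 0.08, beside 0.05 over all genes, and 34 of the 48 values were positive (70.8%, beside 61.7% over all genes). All shKdm2b arrays lay above all shScr arrays for 8 members and below them for 2, where 11.8% of all genes lay wholly above and 9.18% wholly below. The 8 were Lefty2, Acvr1b, Smad7, Bmp7, Acvrl1, Smad9, Gdf9 and Smad4, and the 2 were Nodal and Tgfb2. Levels were below the median of the array in all 8 samples for 12 members.

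**Figure D1:**
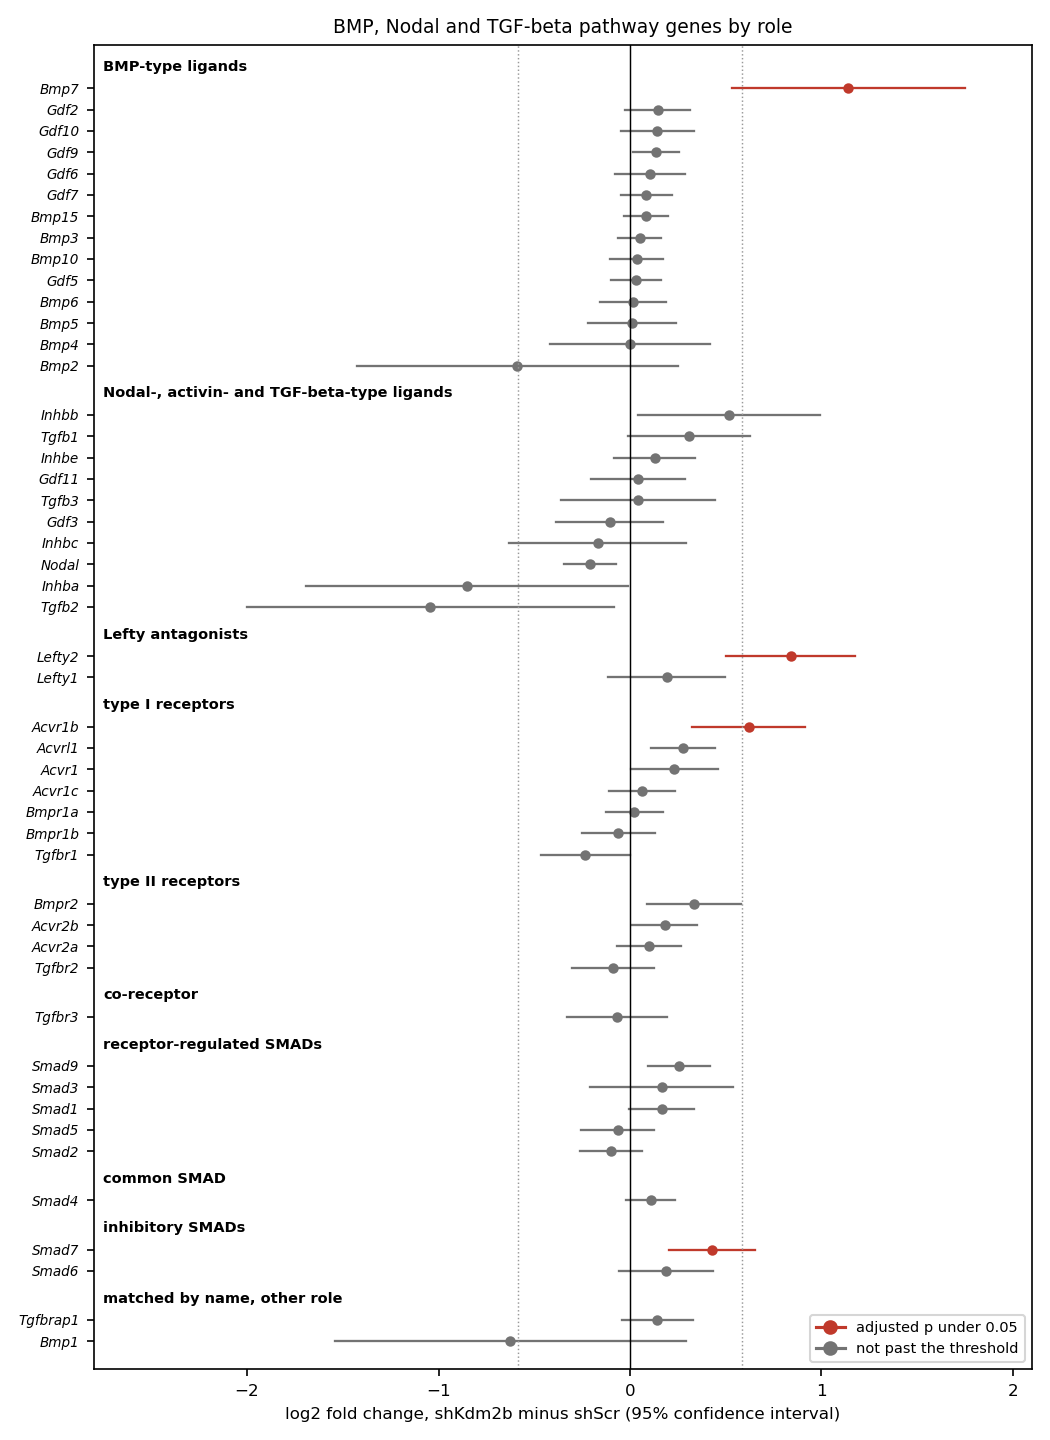
Log2 fold change of each of the 48 members, shKdm2b minus shScr (x axis), grouped by role, where points are limma estimates, lines are 95% confidence intervals and dotted lines mark 1.5-fold. The 4 members with an adjusted p under 0.05, in red, all lie to the right of 0, and the widest intervals belong to genes such as Tgfb2 and Bmp1.

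The calls depended on which arrays were fitted. When each array was left out in turn, the number of changed members ranged from 0 to 3. It was 0 without shKdm2b replicate 2, and 1 (Lefty2) without shKdm2b replicate 4 or without shScr replicate 2, 3 or 4. Over all genes, 10.7% passed the adjusted p with all arrays and 3.38% without shKdm2b replicate 2. Log2 fold changes in these fits ran from 0.71 to 0.91 for Lefty2, 0.91 to 1.39 for Bmp7 and 0.56 to 0.74 for Acvr1b. In the fit of passages 28 to 30 alone, which both groups hold, no member passed the adjusted p, with 160 changed genes in all, against 569 with all arrays.

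Among the 14 BMP-type ligands, Bmp7 was the only member to pass the test. Its log2 signal was 11.14, 10.38, 9.68 and 10.55 in shKdm2b replicates 1 to 4, and 9.58, 9.13, 9.27 and 9.21 in shScr replicates 1 to 4. The groups did not overlap, although the lowest shKdm2b array was only slightly above the highest shScr array. On the log2 scale the change was 1.14 ± 0.27 (SE, n = 4 arrays per group, adjusted p = 0.0366, limma). Leaving out shKdm2b replicate 2 or 4, or shScr replicate 2, 3 or 4, raised the adjusted p to between 0.0901 and 0.0971.

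Bmp4, the ligand that sustains self-renewal in serum-free ESC culture with LIF, stood at 12.25, 12.55, 12.51 and 12.14 in the shKdm2b arrays and at 12.86, 12.44, 12.15 and 11.99 in the shScr arrays. The groups overlapped throughout, with means of 12.36 ± 0.20 in shKdm2b cells and 12.36 ± 0.38 in shScr cells (SD, n = 4 each). The interval of the log2 fold change ran from -0.42 to 0.42, which spans 0.748-fold to 1.34-fold, and the estimate was 0.17 without shScr replicate 1 (adjusted p = 0.508, limma). Bmp2, a close relative of Bmp4, was low except in 1 array, with 7.12, 7.30, 7.23 and 7.62 in the shKdm2b arrays and 9.18, 7.44, 7.44 and 7.55 in the shScr arrays. Its log2 fold change was -0.59 with all arrays and -0.16 without shScr replicate 1, and neither passed the test (adjusted p = 0.350 and 0.438, limma).

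The remaining 11 BMP-type ligands, among them Bmp5, Bmp6, Bmp10, Bmp15, Gdf2, Gdf5, Gdf6, Gdf7 and Gdf10, changed by at most 0.14 on the log2 scale. Gdf9, an oocyte growth factor, had non-overlapping groups at this small distance, with 8.17, 8.19, 8.05 and 8.08 in the shKdm2b arrays and 7.97, 8.03, 7.96 and 7.99 in the shScr arrays. Its adjusted p was 0.146 (limma).

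**Figure D2:**
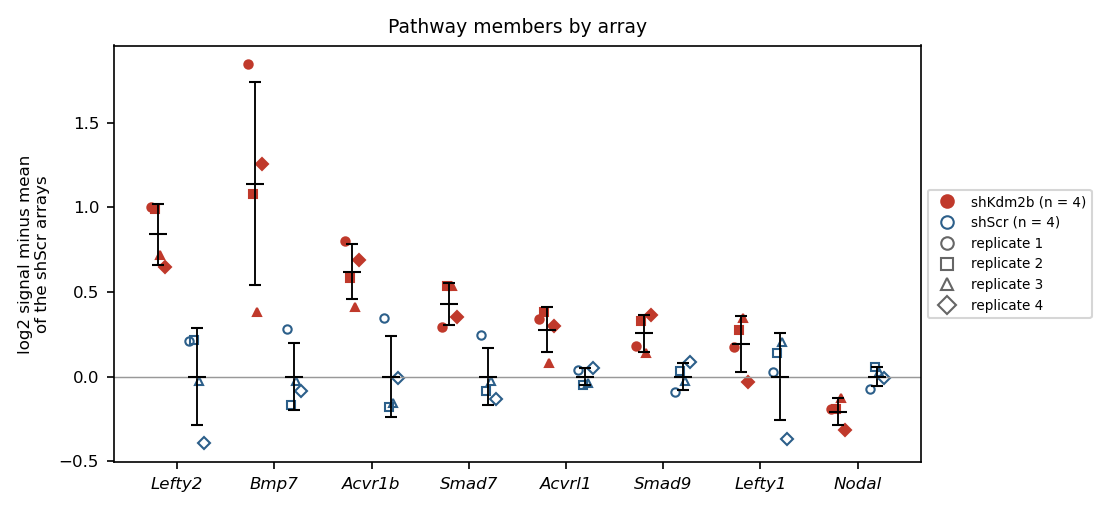
Log2 signal of 8 members in each array, minus the mean of the shScr arrays (y axis), with filled red symbols for shKdm2b, open blue symbols for shScr, 1 symbol shape per replicate number, and black bars for the mean and SD of 4 arrays. Lefty2, Bmp7, Acvr1b and Smad7 lie higher in every shKdm2b array, Lefty1 overlaps between the groups, and Nodal lies slightly lower in every shKdm2b array.

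None of the 10 Nodal-, activin- and TGF-beta-type ligands passed the test in either direction. Nodal, which patterns the early embryo and is made by ESCs, had 11.83, 11.83, 11.90 and 11.70 in the shKdm2b arrays and 11.95, 12.08, 12.05 and 12.01 in the shScr arrays. All shKdm2b arrays were lower than all shScr arrays, by a small amount. On the log2 scale the change was -0.21 ± 0.06 (SE, adjusted p = 0.0681, limma), and the adjusted p was 0.0405 without shKdm2b replicate 3.

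Gdf3, a Nodal-related ligand of pluripotent cells, averaged 12.16 ± 0.21 in shKdm2b cells and 12.27 ± 0.18 in shScr cells (SD, n = 4 each), with overlapping groups. Inhbb, the subunit of activin B, had 9.77, 10.51, 10.22 and 10.22 in the shKdm2b arrays and 9.94, 10.02, 9.21 and 9.48 in the shScr arrays. The groups overlapped through shKdm2b replicate 1, and the log2 fold change of 0.52 (95% confidence interval 0.04 to 0.99) had an adjusted p of 0.164 (limma). Tgfb1, the founding TGF-beta ligand, had 10.42, 10.25, 10.05 and 10.16 in the shKdm2b arrays, against 10.32, 9.85, 9.72 and 9.75 in the shScr arrays. Its groups overlapped through shScr replicate 1, and the log2 fold change was 0.31 with that array (adjusted p = 0.204, limma) and 0.45 without it (adjusted p = 0.0323, limma).

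The largest falls in value were those of Tgfb2 and Inhba, and both leaned on shScr replicate 1. Tgfb2, a TGF-beta ligand of the embryo, had 8.29, 8.30, 8.07 and 7.85 in the shKdm2b arrays and 10.61, 8.73, 8.42 and 8.92 in the shScr arrays. All shKdm2b arrays were below all shScr arrays. In the fit, the log2 fold change was -1.04 ± 0.42 (SE, adjusted p = 0.163, limma) with all arrays and -0.56 ± 0.15 (adjusted p = 0.0639) without shScr replicate 1.

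Inhba, the subunit of activin A, had 7.74, 7.49, 7.43 and 7.46 in the shKdm2b arrays, against 9.63, 8.30, 7.72 and 7.87 in the shScr arrays. Only the highest shKdm2b array reached into the range of the shScr arrays. The log2 fold change was -0.85 with all arrays and -0.44 without shScr replicate 1 (adjusted p = 0.188 and 0.114, limma). Tgfb3, the third TGF-beta ligand, was at 8.14, 7.98, 7.78 and 7.96 in the shKdm2b arrays and at 8.50, 7.74, 7.70 and 7.74 in the shScr arrays. Its log2 fold change was 0.04 with all arrays and 0.23 without shScr replicate 1, where the adjusted p was 0.145 (limma).

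Bmp1 carries the family name but encodes a metalloprotease that cleaves procollagen and the BMP antagonist chordin. It was at 9.90, 9.89, 9.55 and 9.62 in the shKdm2b arrays and at 11.75, 10.10, 9.62 and 10.00 in the shScr arrays. The log2 fold change of -0.63 (adjusted p = 0.361, limma) was -0.16 without shScr replicate 1 (adjusted p = 0.515).

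**Figure D3:**
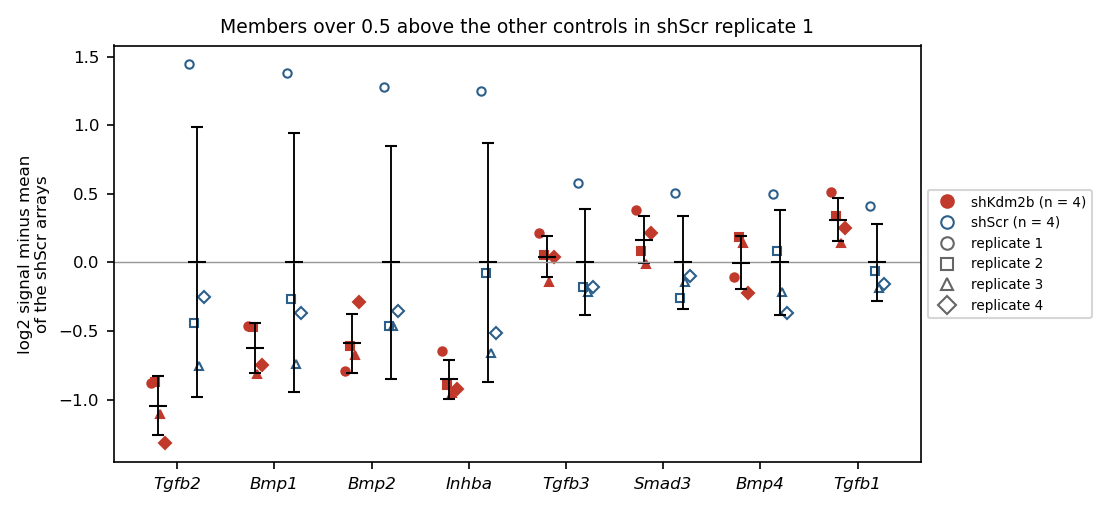
Log2 signal of the 8 members that were more than 0.5 higher in shScr replicate 1 than in the other shScr arrays, minus the mean of the shScr arrays (y axis), with symbols, bars and groups as in the plot of members by array. The open circle, shScr replicate 1, lies far above the other open symbols for Tgfb2, Bmp1, Bmp2 and Inhba (by 1.92, 1.84, 1.70 and 1.67), and closer to them for Tgfb3, Smad3, Bmp4 and Tgfb1.

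The Lefty genes encode secreted antagonists that block Nodal at its receptors, and both are targets of Nodal signalling. Lefty2 had 11.31, 11.30, 11.03 and 10.96 in the shKdm2b arrays and 10.52, 10.52, 10.28 and 9.91 in the shScr arrays. Every shKdm2b array exceeded every shScr array. Lefty2 was higher by 0.84 ± 0.15 on the log2 scale (SE, adjusted p = 0.0148, limma), and the adjusted p stayed under 0.05 when any array but shKdm2b replicate 2 was left out (0.0524).

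Lefty1 had 11.97, 12.07, 12.14 and 11.76 in the shKdm2b arrays and 11.82, 11.94, 12.00 and 11.43 in the shScr arrays. The groups overlapped, although each shKdm2b array was above the shScr array of its own number, and the log2 fold change was 0.19 (95% confidence interval -0.11 to 0.50, adjusted p = 0.402, limma). Lefty1 and Lefty2 are similar in sequence and lie close together in the RefSeq gene order, with 1 protein-coding gene between them. Whether the probes of one also catch transcripts of the other was not tested.

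Of the 7 type I receptors, 1 rose and none fell. Acvr1b, which encodes the kinase ALK4, had 11.12, 10.90, 10.73 and 11.01 in the shKdm2b arrays, against 10.66, 10.14, 10.17 and 10.31 in the shScr arrays. The groups were separated by a narrow gap, between shKdm2b replicate 3 and shScr replicate 1. The log2 fold change was 0.62 ± 0.13 (SE, adjusted p = 0.0250, limma). Leaving out shKdm2b replicate 1, 2 or 4, or shScr replicate 2, 3 or 4, gave adjusted p-values of 0.0543 to 0.0763, and leaving out shScr replicate 1 gave 0.00931.

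Acvrl1, the neighbour of Acvr1b in the gene order and the gene of the kinase ALK1, which binds BMP9 and BMP10 in blood vessels, had 9.15, 9.20, 8.90 and 9.12 in the shKdm2b arrays. In the shScr arrays it had 8.85, 8.76, 8.77 and 8.87. The groups did not overlap, and the log2 fold change of 0.28 had an adjusted p of 0.0543 (limma), which was 0.0106 without shKdm2b replicate 3.

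Tgfbr1, the type I receptor of TGF-beta, had 10.19, 10.25, 10.44 and 10.07 in the shKdm2b arrays and 10.56, 10.38, 10.64 and 10.30 in the shScr arrays. The groups overlapped, although each shKdm2b array was below the shScr array of its own number. Its log2 fold change was -0.23 (adjusted p = 0.193, and 0.0597 under pairing by replicate number, limma). The BMP receptors Acvr1, Bmpr1a and Bmpr1b had values of 0.23, 0.02 and -0.06, and the Nodal receptor Acvr1c had 0.06, with no adjusted p under 0.05.

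None of the 4 type II receptors passed the test. Bmpr2, the type II receptor most used by BMP ligands, had 10.88, 11.21, 11.17 and 11.17 in the shKdm2b arrays, against 11.02, 10.59, 10.71 and 10.77 in the shScr arrays. Replicate 1 of each group was closest to the other group, and only these arrays overlapped. The log2 fold change was 0.34 with all arrays (adjusted p = 0.0949, limma) and 0.42 without shScr replicate 1 (adjusted p = 0.0431). The activin receptors Acvr2b and Acvr2a had 0.18 and 0.10, Tgfbr2 had -0.09, and the co-receptor Tgfbr3, or betaglycan, had -0.07. Tgfbrap1, whose product associates with TGF-beta receptors, had 0.14.

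Among the SMADs, the inhibitory Smad7 passed the adjusted p. It had 11.91, 12.15, 12.15 and 11.97 in the shKdm2b arrays and 11.86, 11.53, 11.59 and 11.48 in the shScr arrays. The groups did not overlap, with shKdm2b replicate 1 and shScr replicate 1 nearly level. Smad7 was higher by 0.43 ± 0.10 on the log2 scale (SE, adjusted p = 0.0343, limma), and a fit that paired the arrays by replicate number (a replicate block) gave an adjusted p of 0.0570. It also exceeded 0.05 without shKdm2b replicate 2 or 4 and without shScr replicate 2, 3 or 4.

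Smad6, the other inhibitory SMAD, had 9.59, 9.58, 9.28 and 9.51 in the shKdm2b arrays, against 9.57, 9.30, 9.15 and 9.19 in the shScr arrays. The groups overlapped (log2 fold change 0.19, adjusted p = 0.303, limma). Smad4, the common partner, had 12.20, 12.07, 12.07 and 12.06 in the shKdm2b arrays and 12.02, 11.92, 12.00 and 12.04 in the shScr arrays. The groups were barely apart, and the log2 fold change was 0.11 (adjusted p = 0.268, limma).

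Of the 5 receptor-regulated SMADs, Smad9 had 8.62, 8.77, 8.58 and 8.80 in the shKdm2b arrays, against 8.34, 8.47, 8.41 and 8.52 in the shScr arrays. Its groups did not overlap, and the log2 fold change was 0.25 (adjusted p = 0.0623, limma), with an adjusted p of 0.0350 under the replicate block and 0.0337 without shKdm2b replicate 3. Tgfb1 passed under the same block too (adjusted p = 0.0449, limma). Smad1, which shares the BMP branch with Smad9 and Smad5, had 0.17, and Smad5 had -0.06. Of the Nodal and TGF-beta branch, Smad2 had -0.10 and Smad3 had 0.17 with all arrays and 0.33 without shScr replicate 1 (adjusted p = 0.556 and 0.0868, limma).

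The sequences before the gene starts were set beside these values, since KDM2B is known for binding CpG-rich DNA. The RefSeq promoter table (GRCm38.p6, 250 bases before to 50 bases after the start) held 39 promoters of 32 members, and Bmp7, Lefty1, Lefty2 and Smad7 were not among them. The member promoters held a median of 26 CG dinucleotides (2 to 54), beside a median of 15 over the 19177 promoters of genes that a probe set names alone and 7 over all 32851 promoters of the table. Acvr1b, which rose, held 51 CG dinucleotides, Nodal held 5 and Tgfb2, with the most negative log2 fold change of the members, held 10. Member promoters with 23 or more CG dinucleotides belonged mostly to genes with a positive log2 fold change, except those of Smad5 and one of Tgfbr1. Negative values lay mostly among promoters with fewer. The cut of 23 was not set in advance, and the same split was not made over all genes, of which 61.7% had positive values. Of the members with a promoter here, only Acvr1b passed the adjusted p. A link between CG content and direction was not tested. Acvr2a (54), Acvr1 (51) and Bmpr1a (48) had log2 fold changes of 0.10, 0.23 and 0.02 without passing the test. Bmp15 (2) and Bmp10 (3) had 0.08 and 0.03. The promoters of Acvr1b, Nodal and Tgfb2 are printed to show that range, with each CG in capitals, for Acvr1b at chr15:101173822-101174121 (plus strand), Nodal at chr10:61417722-61418021 (plus strand) and Tgfb2 at chr1:186705940-186706239 (minus strand):
Acvr1b: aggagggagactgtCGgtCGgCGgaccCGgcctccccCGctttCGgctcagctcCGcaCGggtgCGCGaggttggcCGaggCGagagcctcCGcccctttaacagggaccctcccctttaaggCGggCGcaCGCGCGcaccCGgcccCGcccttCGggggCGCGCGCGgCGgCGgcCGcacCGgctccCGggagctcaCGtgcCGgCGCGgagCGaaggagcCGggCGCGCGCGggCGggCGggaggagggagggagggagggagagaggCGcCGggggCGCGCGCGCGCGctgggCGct
Nodal: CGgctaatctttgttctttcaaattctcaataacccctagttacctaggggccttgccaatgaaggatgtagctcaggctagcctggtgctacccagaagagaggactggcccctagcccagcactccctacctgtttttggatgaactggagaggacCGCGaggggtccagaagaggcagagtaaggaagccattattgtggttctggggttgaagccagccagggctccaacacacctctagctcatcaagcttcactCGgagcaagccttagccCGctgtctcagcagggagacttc
Tgfb2: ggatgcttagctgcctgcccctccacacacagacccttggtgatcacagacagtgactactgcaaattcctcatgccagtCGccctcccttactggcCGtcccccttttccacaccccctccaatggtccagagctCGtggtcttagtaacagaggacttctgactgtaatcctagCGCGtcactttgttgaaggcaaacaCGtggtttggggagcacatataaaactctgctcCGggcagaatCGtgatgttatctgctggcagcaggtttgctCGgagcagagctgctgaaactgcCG

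Both strands of the promoters were searched for short motifs, none of which overlaps another. GGCGCC, the GC-rich element that SMAD1 and SMAD5 are known to bind, was found in 9 member promoters (23.1%, beside 16.4% of the promoters of genes that a probe set names alone and 11.9% of all promoters), including that of Acvr1b. GTCTAGAC, the palindrome bound by SMAD3 and SMAD4, was found in 1 (2.56%, beside 0.245% and 0.213%), that of Smad6. TATAAA was found in 6 (15.4%, beside 11.5% and 13.6%), including Tgfb2 and Inhba. GGCGCC itself holds a CG, and the member promoters held a median of 26 CG dinucleotides, beside 15 and 7 in the other sets. Its shares were not compared at like CG content, and more than 1 promoter of Smad5 is among the 9. A match is a description of these letters, and binding was not measured in these arrays.

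Other genes of the pathway, in 5 lists that the name rule does not cover, were measured for 74 of 79 symbols. Of these 74 genes, 1 rose and 5 fell by the same rule, which called 1.42% of all genes higher and 1.43% lower. By the adjusted p alone, 6 of the 74 were higher and 5 lower, where 5.93% of all genes were higher and 4.8% lower. Whether these counts exceed the shares of all genes was not tested. At the median, the 74 genes changed by 0.04 on the log2 scale, beside 0.05 over all genes.

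Among the 24 measured antagonists, latent-binding proteins and other ligands, 1 gene fell and none rose by the rule. Fst, follistatin, which traps activin, had 8.54, 8.44, 8.44 and 8.53 in the shKdm2b arrays, against 9.59, 9.11, 9.81 and 9.11 in the shScr arrays. The shKdm2b arrays were tightly grouped below all shScr arrays, with a log2 fold change of -0.92 ± 0.15 (SE, adjusted p = 0.0125, limma). Inha, the inhibin alpha subunit, which pairs with the products of Inhba and Inhbb to make inhibins that oppose activin, had 8.43, 8.55, 8.38 and 8.50 in the shKdm2b arrays and 7.94, 7.93, 7.88 and 7.88 in the shScr arrays. It was higher in every shKdm2b array by 0.55 ± 0.06 on the log2 scale (SE, adjusted p = 0.00171, limma), just short of 1.5-fold, and both genes kept an adjusted p under 0.05 whichever array was left out.

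Of the 13 co-receptors and receptor modulators, none changed by the rule and 3 were higher by the adjusted p. Pcsk6, a proprotein convertase that processes Nodal and Lefty precursors, was higher by 0.49 ± 0.10 (SE, adjusted p = 0.0244, limma). Zfyve9, which encodes the adaptor SARA that presents SMAD2 and SMAD3 to the receptor, was higher by 0.43 ± 0.07 (adjusted p = 0.0123), and Hjv, the BMP co-receptor hemojuvelin, by 0.39 ± 0.09 (adjusted p = 0.0371). In each of these genes all shKdm2b arrays were above all shScr arrays. The adjusted p of Pcsk6 exceeded 0.05 without shKdm2b replicate 2 or 4 or shScr replicate 2 or 3, and that of Hjv without any array but shKdm2b replicate 3. Of the 16 SMAD cofactors and regulators, Hipk2, a kinase that binds SMAD corepressors, was higher by 0.58 ± 0.09 (adjusted p = 0.0100, limma), or 49.6%, just under the fold limit, and no other passed. Zeb2, a repressor that binds SMADs, had 7.85, 7.73, 7.93 and 7.67 in the shKdm2b arrays, all lower than the 9.35, 8.32, 8.05 and 8.25 of the shScr arrays. Its log2 fold change was -0.70 with all arrays and -0.42 without shScr replicate 1 (adjusted p = 0.123 and 0.0397, limma). Foxh1, the DNA-binding partner of SMAD2 in Nodal signalling, had -0.29 and -0.38 (adjusted p = 0.134 and 0.0480).

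Of the 10 BMP-SMAD target genes, 1 rose and 1 fell. Id1, a direct BMP target that encodes an inhibitor of bHLH factors, had 10.14, 10.12, 10.32 and 10.15 in the shKdm2b arrays, against 10.70, 10.80, 11.13 and 11.14 in the shScr arrays. The groups were well apart, with a log2 fold change of -0.76 ± 0.11 (SE, adjusted p = 0.00691, limma). Dusp9, which encodes a phosphatase of ERK, had 12.79, 12.62, 12.52 and 12.83 in the shKdm2b arrays and 12.46, 11.93, 11.79 and 12.21 in the shScr arrays. It was higher by 0.59 ± 0.14 (adjusted p = 0.0417, limma), a change that fell short of 1.5-fold once each array was centred on its median. Its adjusted p stayed under 0.05 only when the array left out was shKdm2b replicate 3 or shScr replicate 1.

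Id3, a relative of Id1, had 8.71, 9.33, 10.02 and 8.71 in the shKdm2b arrays and 10.38, 9.91, 10.61 and 10.01 in the shScr arrays. The groups overlapped through shKdm2b replicate 3, and the log2 fold change was -1.03 ± 0.30 (SE, adjusted p = 0.0681, limma), with an adjusted p of 0.0325 under the replicate block and 0.0106 without shKdm2b replicate 3. Id2 had 12.72, 12.29, 12.44 and 12.33 in the shKdm2b arrays and 12.43, 12.65, 13.04 and 12.88 in the shScr arrays. Its groups overlapped, with a log2 fold change of -0.31 (adjusted p = 0.223, limma).

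Of the 11 measured targets of Nodal, activin and TGF-beta in the list, 3 fell and none rose by the rule. The list leaves out Lefty1 and Lefty2, also targets of Nodal signalling, because the name rule covers them. By the same rule Lefty2 rose and Lefty1 did not change. Tagln, which encodes an actin-binding protein of smooth muscle, had 9.16, 9.03, 8.43 and 8.22 in the shKdm2b arrays, against 11.43, 10.30, 10.40 and 10.88 in the shScr arrays. Thbs1, thrombospondin 1, which activates latent TGF-beta, had 10.41, 10.41, 9.55 and 9.07 in the shKdm2b arrays and 12.87, 11.40, 11.02 and 11.74 in the shScr arrays. Ccn2, connective tissue growth factor, had 11.61, 11.23, 11.01 and 10.94 in the shKdm2b arrays, against 12.23, 11.54, 12.03 and 12.06 in the shScr arrays. The groups were apart for Tagln and Thbs1 and overlapped for Ccn2.

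The log2 fold changes were -2.04 for Tagln, -1.90 for Thbs1 and -0.77 for Ccn2 (adjusted p = 0.00676, 0.0340 and 0.0370, limma). Without shScr replicate 1, the highest array for all 3 genes, they were -1.81, -1.53 and -0.68, with adjusted p-values of 0.00987, 0.0428 and 0.0714. Thbs1 also exceeded 0.05 without shKdm2b replicate 2 or 4 or shScr replicate 2 or 4, and Ccn2 without shKdm2b replicate 2, 3 or 4 or shScr replicate 3 or 4. Other matrix genes of the list had 0.48 (Tgfbi), 0.01 (Fn1) and -0.18 (Col1a1), with no adjusted p under 0.05.

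Eomes, a T-box factor of the primitive streak and the list's highest value, had 10.25, 10.29, 9.86 and 10.14 in the shKdm2b arrays, against 9.95, 9.07, 9.44 and 9.002 in the shScr arrays. Its groups overlapped only through shScr replicate 1 and shKdm2b replicate 3. On the log2 scale the change was 0.77 with all arrays and 0.96 without shScr replicate 1 (adjusted p = 0.0533 and 0.0110, limma), and the replicate block gave 0.0491.

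**Figure D4:**
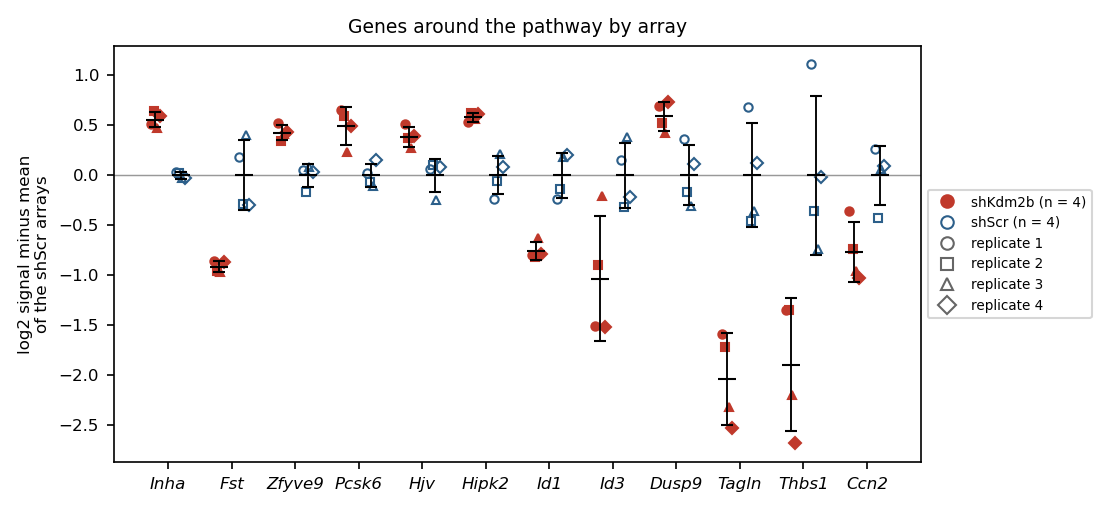
Log2 signal of 12 pathway genes outside the name rule in each array, minus the mean of the shScr arrays (y axis), with symbols, bars and groups as in the plot of members by array. Inha, Zfyve9, Pcsk6, Hjv, Hipk2 and Dusp9 lie higher in every shKdm2b array, and Fst, Id1, Tagln and Thbs1 lie lower in every shKdm2b array, while Id3 and Ccn2 overlap.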

How the data were processed

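Total RNA of 8 cultures was hybridised to Affymetrix Mouse Gene ST arrays. The authors deposited log2 values made by RMA (background correction, quantile normalization and probe summary) with oligo 1.18.1. The genome build behind them is not given in the sources used here. Scanner intensities were not used, so the number of arrays limits the precision. RMA compresses changes of dim probe sets, and levels of different probe sets depend on their probes, so they are set beside each other only as marker averages and array medians, as a rough guide.

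Names came from GEO's platform annotation, with symbols updated through RefSeq (GRCm38.p6). Of 35556 probe sets, 21789 name a single gene, 1621 carry more than 1 name, and 12146 are unnamed here. All were fitted in limma 3.58.1 under R 4.3.3 (lmFit and eBayes), shKdm2b minus shScr, and p-values were adjusted by Benjamini-Hochberg across the whole array. SE and intervals are those of the moderated fit. Data were simulated for this comparison over 35556 probe sets with independent normal noise, and 50 probe sets were changed by each amount. By an adjusted p under 0.05 and the right sign, 92% of those changed by 1 and 58% of those changed by 0.585 on the log2 scale were recovered. The simulation held no effects shared within an array and no fold limit, so it does not give the recovery of the calls above.

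Samples were grouped and numbered by their labels. After subtraction of group means, arrays sharing a number correlated at 0.239, 0.118, 0.355 and 0.222, each above a limit of 0.1, and the labels describe parallel collection, so the numbers can pair the arrays. The fit reported here has no pairing, and the fit with the number as a block is an alternative. Members, gene lists, tests and alternatives were chosen with earlier results of these data known. Named genes were Kdm2b, members past the adjusted p, the extremes of each role, 8 core members, and up to 4 genes per list. Values of other members are given by role. Acvrl1, Smad9, Tgfb1, Gdf9, Inhba, Tgfb3, Smad3, Id2, Id3, Eomes, Zeb2 and Foxh1, and single markers and members given in passing, were added after their values were seen. The alternatives were the replicate block, each array left out, shared passages, bright probe sets, median centring, a trended variance, no fold limit, other symbols and a wider name rule. Figures were drawn with matplotlib 3.10.9.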

Additional observations from a re-analysis of the deposited data

Results flagged for a closer look

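In 7 of 130 groups of 4 arrays, 1 array stood far from the others by Dixon's ratio (its gap to the nearest array over the range of the group), where chance gives about 1 in 20. Replicate 1 of shScr was above the other controls for Bmp2 (9.18, against 7.44 to 7.55, ratio 0.936) and Tgfb3 (8.50, against 7.70 to 7.74, ratio 0.950). Replicate 1 of shKdm2b was below the others for Bmpr2 (10.88, against 11.17 to 11.21, ratio 0.874) and above them for Smad4 (12.20, against 12.06 to 12.07, ratio 0.937). Replicate 3 of shKdm2b was above the others for Id1 (10.32, against 10.12 to 10.15, ratio 0.856). Replicate 3 of shScr was above the others for Bmp15 (7.47, against 7.42 to 7.43, ratio 0.892) and below them for Hjv (8.10, against 8.40 to 8.45, ratio 0.865). The gaps in Smad4, Id1 and Bmp15 were under 0.2 on the log2 scale.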

How the results depend on the processing

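Without 1 array, the count of members changed was 0 to 3 higher, and that of members with an adjusted p under 0.05 was 0 to 7. Across those fits, 3.38% to 18.1% of all genes passed the adjusted p, against 10.7% with all arrays. The 7 and the 18.1% both came from the fit without shKdm2b replicate 3. With the shared passages 28 to 30 and passage as a block, both counts were 0. With bright probe sets only, 7 members had an adjusted p under 0.05 (Acvrl1, Nodal and Smad9 were added). Fewer probe sets were tested there, and 21.7% of the genes tested passed. With the replicate number as a block, 3 members changed and 5 passed the adjusted p, where Smad7 was lost and Smad9 and Tgfb1 were gained, and of the genes outside the name rule 2 rose (Dusp9 and Eomes) and 6 fell, with Id3 gained. The block changed no other call of a named pathway gene. For those outside genes, whose alternatives were added after the data were seen, leaving out 1 array gave 0 to 3 higher and 3 to 5 lower, shared passages gave 0 higher and 2 lower, bright probe sets gave 2 higher, and centring the arrays on their medians gave 0 higher. No member fell by the rule in any alternative. Dropping the fold limit, the platform's own symbols, or admitting Bmp8a and Bmp8b left the member counts within 1.5 times.

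Values near 0 changed sign without 1 array in 8 members. Among those named by rule or choice, Tgfbr2 ranged from -0.15 to 0.000745, Tgfbr3 from -0.12 to 0.0346, Bmp4 from -0.12 to 0.17 and Tgfb3 from -0.0308 to 0.23, and Tgfb3 was -0.0765 with shared passages. The others were Bmp5 (-0.09 to 0.07), Bmp6 (-0.03 to 0.06), Gdf11 (-0.0024 to 0.13) and Bmpr1a (-0.02 to 0.06). The cause of these changes was not tested. Kdm2b stayed lower in all alternatives.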
